A study of Homo sapiens with 4 samples.

Results

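LARP4 binding was described here on the transcripts of 9 genes of the translation machinery and related functions: EEF1A1, EEF2, EEF1B2, EEF1G, EEF1D, TPT1, EIF4B, NACA and HNRNPA1. Members were taken as every interval on the gene's strand that overlaps the gene's window in hg19. That rule uses positions only, but the genes were picked with earlier results of these data known. The windows held 246 of the 171755 clusters of LARP4 eCLIP replicate 1, 246 of the 191899 clusters of replicate 2, and 22 of the 7153 regions in the authors' series-wide list. In all 3 lists, 0 intervals lay on the opposite strand of a window. The study measured LARP4, a La-related RNA-binding protein, in HEK293, an embryonic kidney cell line, by eCLIP. In eCLIP, ultraviolet light links proteins to RNA, an antibody recovers the protein, and its RNA fragments are compared with a size-matched input that skipped the antibody. The groups were LARP4 eCLIP (n = 2, endogenous protein, Bethyl antibody A303-900A) and size-matched input (n = 2, no antibody). All 4 samples came from unmodified cells of this 1 line, crosslinked with 400 mJ/cm2 at 254 nm. Per the labels, replicates are separate biological samples. The inputs enter only as the denominator of the deposited folds, so no group of libraries can be compared with another and no test over samples was made.

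Elongation factors carry out the cycle by which a ribosome adds an amino acid. EEF1A1 brings aminoacyl-tRNA to the ribosome, the EEF1B2, EEF1D and EEF1G proteins form the complex that recharges it with GTP, and EEF2 moves the ribosome along the mRNA. EIF4B stimulates the helicase that opens mRNAs for initiation, NACA binds nascent chains as they leave the ribosome, TPT1 is the translationally controlled tumour protein, and HNRNPA1 is a nuclear RNA-binding protein that acts in splicing. Many such mRNAs begin with a 5′ terminal oligopyrimidine (TOP) tract, a C followed by a run of pyrimidines, through which nutrient signalling controls their translation, in part by way of the related protein LARP1. LARP4 is known to bind poly(A) and the poly(A)-binding protein and to stabilise mRNAs.

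RefSeq starts were shown to see the tract that gives the TOP class its name. Starts for 7 of the 9 genes matched by symbol in the GRCh38.p14 table (EEF1D and HNRNPA1 are named only). Each line runs from 10 bases before the listed start through its first 20 bases, 5′ to 3′, and capitals mark the run of C and T that begins with C at or next to the start.
EEF1A1 (chr6:73521013-73521042, minus strand): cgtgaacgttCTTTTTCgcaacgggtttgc
EEF2 (chr19:3985444-3985473, minus strand): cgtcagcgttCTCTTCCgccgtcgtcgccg
EEF1B2 (chr2:206159885-206159914, plus strand): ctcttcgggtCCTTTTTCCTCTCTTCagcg
EEF1G (chr11:62573872-62573901, minus strand): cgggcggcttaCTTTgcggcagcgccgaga
TPT1 (chr13:45341164-45341193, minus strand): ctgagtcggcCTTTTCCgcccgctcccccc
EIF4B (chr12:53006446-53006475, plus strand): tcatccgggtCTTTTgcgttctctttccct
NACA (chr12:56725280-56725309, minus strand): ctcgctcggtCTTTCTgccgccatcttggt

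A C at the listed start followed by at least 4 pyrimidines was present in 6 of these 7 genes. On the gene's strand, 6 of the 8 listed starts of these genes had it, against 4.07% of all 35116 listed starts. The genes had been grouped as TOP mRNAs beforehand, so this contrast only describes the choice of genes. The EEF1B2 tract was the longest, at 16 bases, and 0.117% of all starts had one as long. EEF1A1, EEF2 and TPT1 had tracts of 7 bases, which 2.10% of starts reached. EEF1G was the exception, with a run of 4 pyrimidines that began at the second base. A second listed start of EEF1B2 had no such tract. These are annotated starts, and the starts used in HEK293 cells were not measured. Positions in the rest of the text are in hg19.

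Most LARP4 eCLIP clusters on these transcripts were above input, and a minority crossed the threshold for strong enrichment. Below input were 7.72% and 9.35% of them (replicates 1 and 2), against 11.6% and 11.2% of all clusters. Most clusters of the whole lists were thus above input too. At least 1 cluster crossed the threshold for strong enrichment in EEF2, EEF1G and EEF1D in replicate 1, and in those genes, EEF1B2, TPT1 and NACA in replicate 2. EEF1A1, EIF4B and HNRNPA1 had none in either. With 3 counts taken as the limit, these counts of 0 allow shares of 9.68% to 13.6%. That is above the 5.01% and 5.50% of all clusters, so they do not set these genes below the lists. The levels are the authors' log2 folds of a cluster over input. Median fold over the 246 clusters was 1.82 in replicate 1 and 1.87 in replicate 2 (log2), against 1.28 and 1.30 over the whole lists. A log2 fold of at least 1 was reached by 181 and 195 clusters, or 73.6% and 79.3%, against 59.4% and 60.9% of all clusters. Adding a −log10 p of at least 3 left 170 and 179 clusters, or 69.1% and 72.8%, against 14.0% and 13.7% of all clusters. This p is the authors' value for a cluster against input, and it depends on the number of reads, which is unknown here.

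Strong enrichment, a log2 fold of at least 3 (8-fold) with a −log10 p of at least 3, was reached by 16 clusters of replicate 1. They made up 6.50% of its clusters in the windows, with a Wilson 95% interval from 4.04 to 10.3. Replicate 2 had 31 such clusters, which is 12.6%, with an interval from 9.02 to 17.3. The whole lists gave 5.01% and 5.50%. The share in replicate 1 was thus near the background, and its interval contains it. EEF2 held 9 of the 16 and 16 of the 31 clusters, and without EEF2 the shares were 3.50% and 7.65%. A further 32 and 28 clusters that passed the limit on p had log2 folds between 2.5 and 3, so small shifts of the threshold change the count. Clusters of 1 gene share their source, and the intervals cover counting error only.

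The genes fell into an order that both replicates mostly kept. EEF2 had median log2 folds of 2.59 and 2.70 (2.64 ± 0.07, SD, n = 2), and EEF1G had 2.46 and 2.79 (2.63 ± 0.23). EEF1B2 followed at 2.30 and 2.45, EEF1D at 2.05 and 2.08, TPT1 at 1.83 and 2.23, and NACA at 1.87 and 1.76. These 6 genes lay above the median of both lists in both replicates. EEF1A1, at 1.24 and 1.49, lay around it. HNRNPA1, at 0.64 and 0.82, and EIF4B, at 0.22 and −0.15, lay below it in both replicates. The replicates' ranges overlapped between EEF2 and EEF1G, between EEF1D and TPT1 and between TPT1 and NACA, so those neighbours were not separated.

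**Figure D1:**
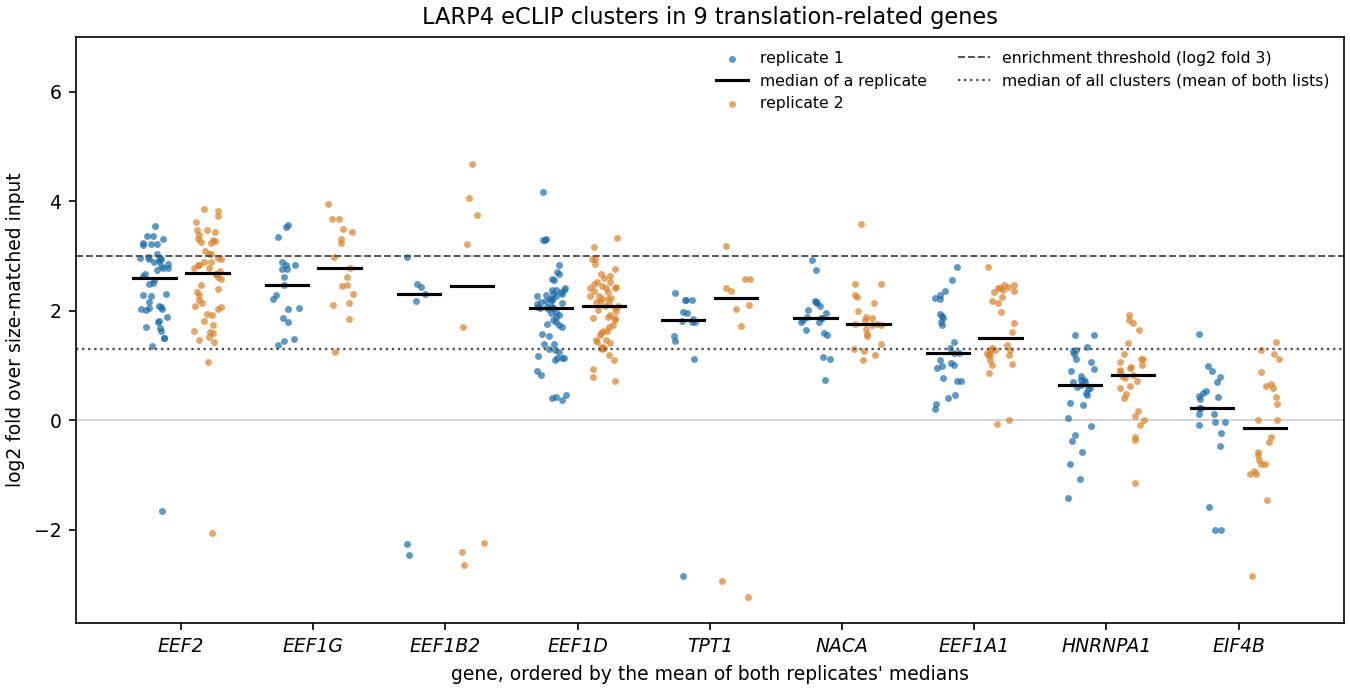
Log2 fold over size-matched input (y axis) of each LARP4 eCLIP cluster in the 9 gene windows (x axis), with replicate 1 in blue, replicate 2 in orange and black lines at each replicate's median. EEF2, EEF1G and EEF1B2 have medians between 2.30 and 2.79, while those of HNRNPA1 and EIF4B lie below the dotted median of all clusters. Points far below 0 appear in EEF2, EEF1B2 and TPT1, among others.

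Set beside 8844 loci with at least 5 clusters in each replicate, a locus being a run of clusters on 1 strand with gaps of up to 5 kb, the genes spread over nearly the whole range. The median locus had a log2 fold of 1.30. EEF2 was above 93.9% of loci, EEF1G above 93.7% and EEF1B2 above 90.9%. The EEF1B2 medians rest on 7 and 8 clusters, of which 2 and 3 were below input. That is 28.6% and 37.5%, against 11.6% and 11.2% of all clusters. EEF1D and TPT1 were above 85.1% and 84.1%, and NACA above 77.3%. EEF1A1 was near the middle, above 54.3%, while HNRNPA1 was above 20.7% and EIF4B above 4.07% of loci.

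**Figure D2:**
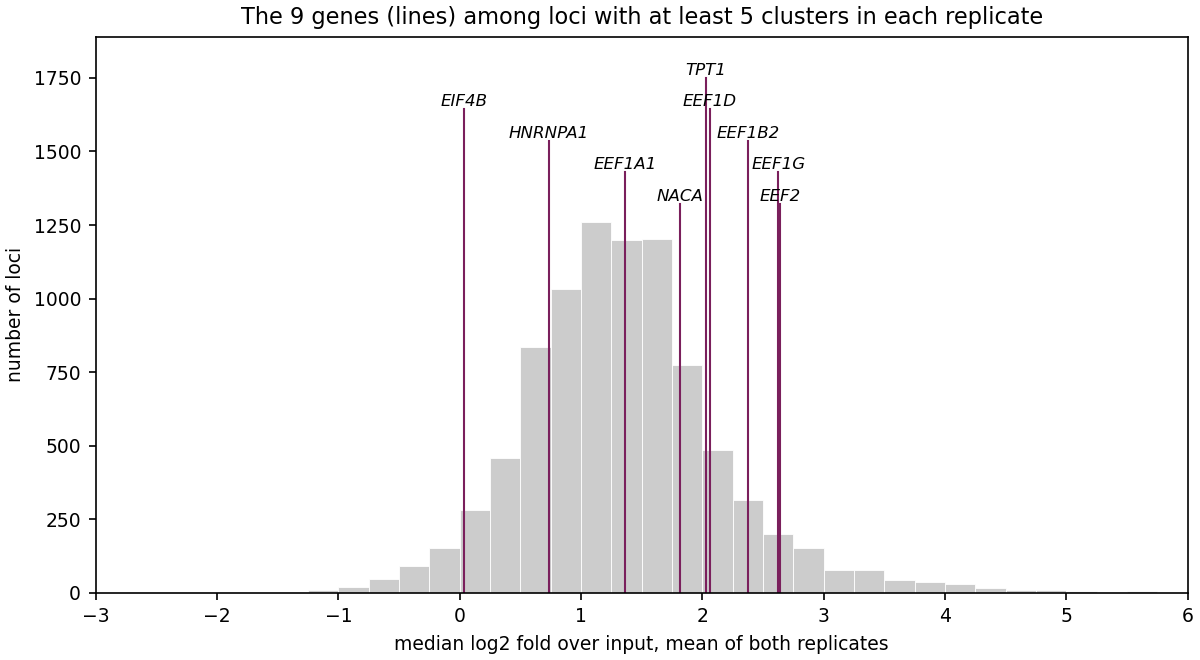
Number of loci (y axis) by the median log2 fold over input, averaged over both replicates (x axis), for 8844 loci in grey, with a vertical line for each of the 9 genes. EIF4B lies in the lower tail, EEF1A1 near the middle, and EEF1B2, EEF1G and EEF2 in the upper tail, above 90.9% to 93.9% of loci.

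EEF2, the translocase, carried the most of the authors' regions. Its window, chromosome 19, 3976000 to 3985500 on the minus strand, held 13 regions, and 62 of all 44219 loci held more. Of all loci, 2232 held any region. The EEF2 locus was also rich in clusters, with 96 over both replicates, and 224 loci had more. The regions formed 2 blocks next to the 3′ end of the window. Of these, the block from 3976086 to 3976235 held 6 regions with log2 folds of 2.63 to 3.36 in replicate 1 and 3.47 to 3.86 in replicate 2. The other, from 3976473 to 3976586, held 7 regions with 2.94 to 3.55 and 3.03 to 3.43. Thus the block nearest the 3′ end was higher in replicate 2, while the ranges of the other block overlapped. Both replicates had an enriched cluster under 10 of the 13 regions. By the rule of the highest lower value, the top piece was 3976496 to 3976500, with 3.55 and 3.38 (3.46 ± 0.12, SD, n = 2). The lower of these is 10.4-fold. The −log10 p was at its upper limit of 400 in 10 EEF2 clusters of replicate 1 and 5 of replicate 2, and in no cluster of the other genes. The whole lists had 503 of 171755 and 525 of 191899 clusters at this limit, and this p depends on the number of reads.

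EEF2 folds were highest next to the 3′ end and lower over the following 4 kb. In the last 1 kb of the window the mean log2 fold was 2.98 in replicate 1 (23 clusters, lowest 2.48) and 3.15 in replicate 2 (26 clusters, lowest 2.47). From 1 to 2 kb it was 2.25 and 2.37, and from 3 to 4 kb it was 1.63 and 1.60. Farther upstream clusters were sparse and gave no steady slope. From 4 to 5 kb there was 1 cluster in each replicate, at 1.36 and 1.93, and from 6 to 7 kb 1 in each, at −1.66 and −2.06. Replicate 2 had a last one at 1.07 from 9 to 10 kb. Spearman's rho of fold with position towards the 3′ end was 0.86 over 46 clusters and 0.91 over 50. Neighbouring clusters share reads and libraries, so these values are descriptions only.

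EEF1A1, the carrier of aminoacyl-tRNA, had the same kind of slope at lower levels and no enriched cluster. In its window (chromosome 6, 74225400 to 74230800, minus strand) 0 of 27 and 0 of 30 clusters were enriched, which allows shares of up to 11.1% and 10.0% when 3 counts are taken as the limit. Both limits lie above the 5.01% and 5.50% of all clusters. Its highest log2 folds were 2.79 and 2.80. From 2 to 3 kb before the 3′ end of the window the mean was 2.11 and 2.44, from 3 to 4 kb it was 1.35 and 1.68, and from 4 to 5 kb 0.67 and 0.96. Spearman's rho of fold with position was 0.94 and 0.89. The best pair, at 74227900 to 74227925, had 2.57 and 2.80 (2.68 ± 0.16, SD, n = 2), or 6.42-fold.

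No EEF1A1 cluster of either replicate lay in the last 2213 bases of the window, which is 41.0% of its length. In EEF2, EEF1G, EEF1D, TPT1, NACA, HNRNPA1 and EIF4B the last cluster ended within 67 to 169 bases of that end. RefSeq lists 50 pseudogenes named after EEF1A1 and 75 after HNRNPA1, against 14 for TPT1, 7 to 9 for EEF1B2, EEF1G, EEF1D, EIF4B and NACA, and 0 for EEF2. The labels do not say how reads that map to such copies were treated. Folds and missing clusters of these genes are uncertain to that extent, and the part of the copies in them was not tested.

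**Figure D3:**
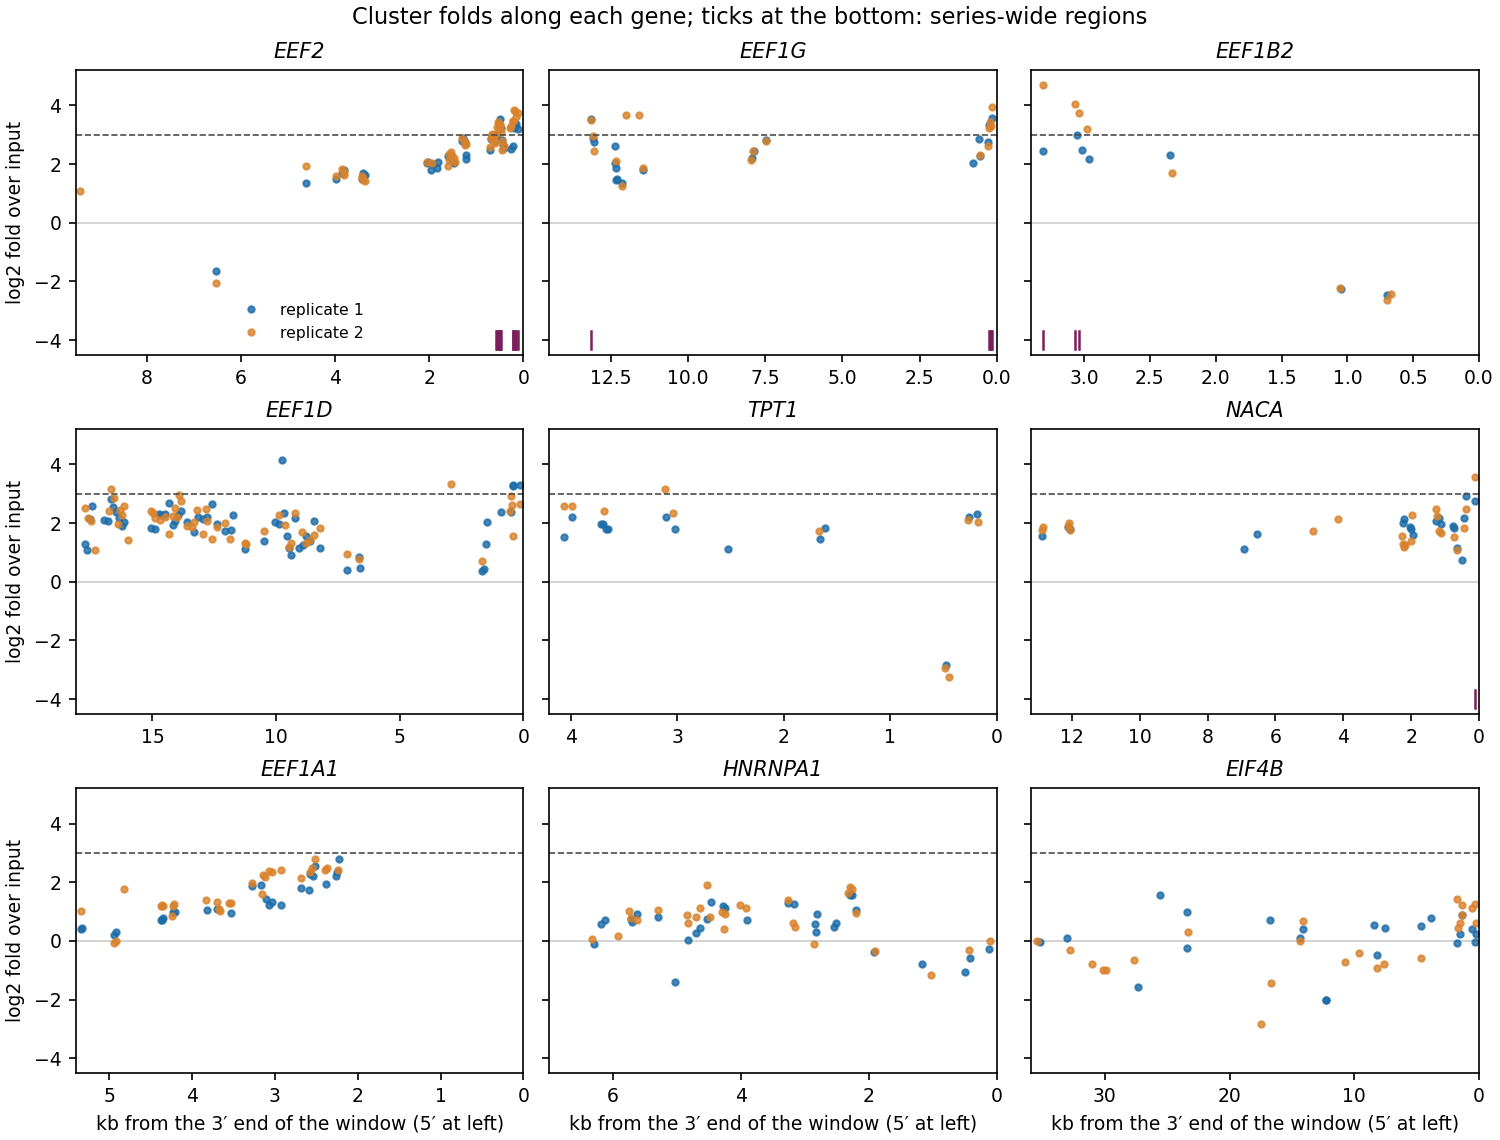
Log2 fold over input (y axis) of clusters in replicate 1 (blue) and replicate 2 (orange) by distance in kb from the 3′ end of each gene's window (x axis, 5′ end at left), with purple ticks for series-wide regions and a dashed line at the threshold of 3. Folds climb towards the 3′ end in EEF2 and EEF1A1, are high at both ends in EEF1G, fall below 0 in the 3′ part of EEF1B2, and scatter around input in EIF4B.

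Among the subunits of the exchange complex, EEF1G had signal at both ends, EEF1B2 at the 5′ end and EEF1D over most of its length. EEF1G (chromosome 11, 62327000 to 62341500, minus strand) held 5 regions, and both replicates had an enriched cluster under all 5. A block of 4, from 62327114 to 62327283, lay 114 bases from the 3′ end of the window. Folds in its top region, 62327114 to 62327191, were 3.57 and 3.95 on the log2 scale (3.76 ± 0.27, SD, n = 2). The lower of these is 11.9-fold. The fifth, 62340081 to 62340197, lay 13081 bases upstream of that end, with 3.53 and 3.49. At both places the replicates were within 0.4 of each other. All 19 and 17 clusters of the gene passed the lower threshold, a log2 fold of 1 together with the limit on p.

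EEF1B2 (chromosome 2, 207024300 to 207027700, plus strand) had 3 regions, all in the 5′ part of the window. At 207024368 to 207024407, the region nearest the 5′ end had 2.43 (log2) in replicate 1 and 4.68 in replicate 2 (3.56 ± 1.59, SD, n = 2). The top region, 207024618 to 207024649, had 2.98 and 4.06 (3.52 ± 0.76). It touches the region 207024650 to 207024674, with 2.98 and 3.74, and both rest on 1 replicate 1 cluster. Enriched clusters numbered 0 of 7 in replicate 1 and 4 of 8 in replicate 2, so replicate 2 alone decides these calls. A count of 0 of 7 allows a share of up to 42.9%, far above the 5.01% of all clusters of replicate 1.

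EEF1D (chromosome 8, 144661800 to 144679900, minus strand) had the most clusters, 60 and 56, with 0 below input in either replicate, and no region. Enriched clusters numbered 4 and 2, or 6.67% and 3.57%, which is near the 5.01% and 5.50% of all clusters. No overlapping pair was enriched in both replicates. Of the 4 in replicate 1, 3 lay near the 3′ end, from 144661913 to 144662248, with log2 folds of 3.28 to 3.31. Their partners in replicate 2 had 1.55 to 2.67. In the last 1 kb of the window the mean was 2.93 and 2.44, over 5 clusters in each replicate. The highest enriched cluster, at 144671538 to 144671611 with a log2 fold of 4.16, was in replicate 1 and overlapped no cluster of replicate 2. The best pair, at 144678449 to 144678520, lay near the 5′ end, with 2.83 and 3.16 (2.99 ± 0.23, SD, n = 2). EEF1D thus had a median of 4.18-fold, clusters as low as 0.36 and 0.72 (log2), and no recurring peak past the threshold.

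Of the other genes, NACA had the single remaining region. It lay at chromosome 12, 57106267 to 57106337 on the minus strand, 67 bases from the 3′ end of the window 57106200 to 57119400. Its folds (log2) were 2.75 and 3.57 (3.16 ± 0.59, SD, n = 2), so only replicate 2 passed the threshold there. Other NACA clusters lay between 0.74 and 2.92 in replicate 1 and between 1.09 and 2.49 in replicate 2.

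TPT1 (chromosome 13, 45911200 to 45915400, minus strand) had no region. Its best pair, 45914291 to 45914319, had 2.20 and 3.18 (2.69 ± 0.69, SD, n = 2), and 1 cluster of replicate 2 was enriched. Most of its clusters, 12 of 14 and 8 of 10, still passed the lower threshold.

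HNRNPA1 and EIF4B stood apart at the low end. HNRNPA1 (chromosome 12, 54673900 to 54680900, plus strand) had a best pair of 1.56 and 1.83 at 54678590 to 54678606 (1.70 ± 0.19, SD, n = 2), or 3.24-fold. The HNRNPA1 pair with the lowest higher value, 54678962 to 54678994, had −0.38 and −0.36. In the last 1 kb of the HNRNPA1 window the mean log2 fold was −0.64 (3 clusters) and −0.15 (2 clusters). From 2 to 3 kb it was 0.89 and 1.22. Over the whole window fold hardly followed position, with Spearman's rho of −0.116 and −0.118. EIF4B (chromosome 12, 53400100 to 53436000, plus strand) had 22 and 24 clusters over the longest window. None passed the lower threshold, which allows up to 13.6% and 12.5%, against 14.0% and 13.7% of all clusters. Its best pair, 53434580 to 53434645, had 0.90 and 0.88, or 1.85-fold, with −log10 p of 1.33 and 1.32. Its pair with the lowest higher value, 53427769 to 53427815, had −0.47 and −0.92. Below input were 8 of 22 and 12 of 24 of its clusters, or 36.4% and 50.0%, against 11.6% and 11.2% of all clusters. By the rule above, EIF4B has a listed start with a TOP tract, as do EEF2 and EEF1B2. Whether the tract bears on LARP4 binding was not tested.

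**Figure D4:**
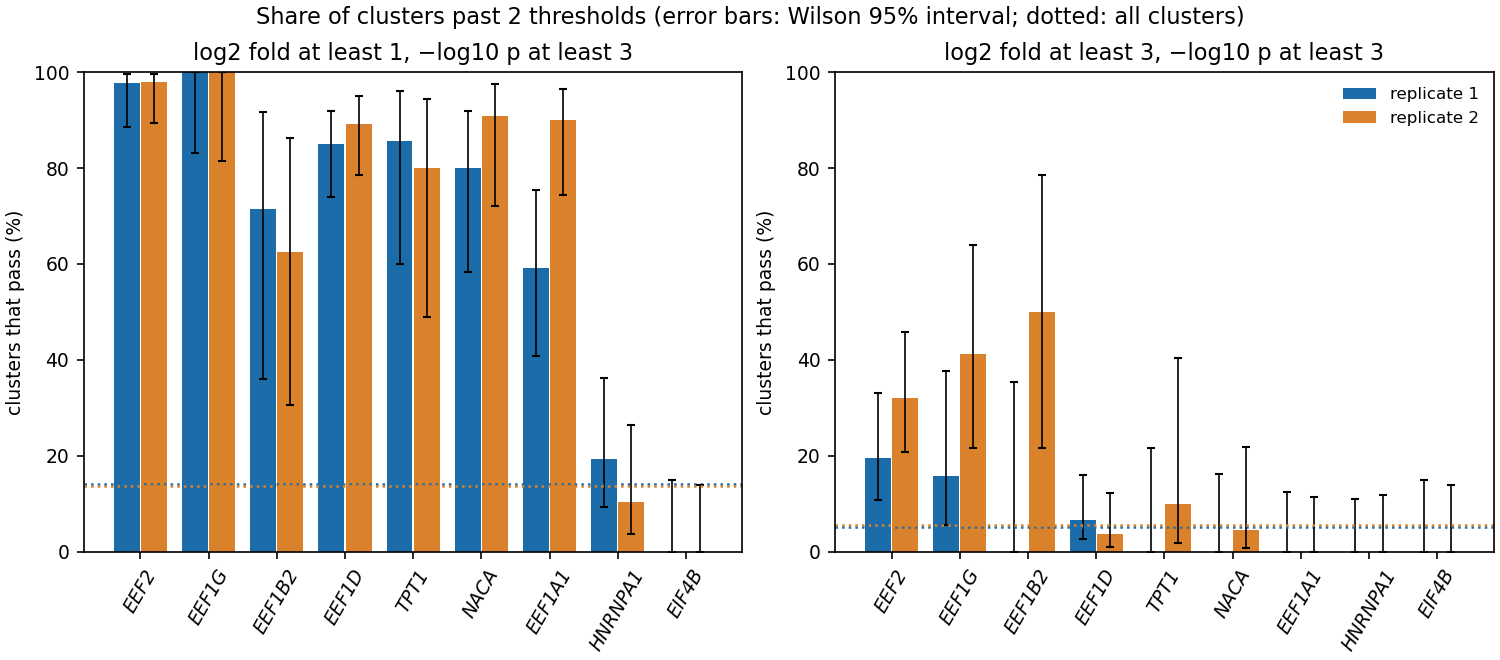
Percent of clusters (y axis) in each gene (x axis) that pass a log2 fold of at least 1 (left) or 3 (right), both with a −log10 p of at least 3, in replicate 1 (blue) and replicate 2 (orange), with Wilson 95% intervals and dotted lines for all clusters of the lists. At the lower threshold 7 genes lie far above the lists' 14.0% and 13.7%, while at the higher one EEF2 and EEF1G stand above 5.01% and 5.50% in both replicates and EIF4B has none at either.

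Regions of the authors' list were thus present in 4 of the 9 genes, 13 in EEF2, 5 in EEF1G, 3 in EEF1B2 and 1 in NACA, and absent from the list in 5. Among all loci with at least 15 clusters over both replicates, the number in the sparsest of the 9 windows, 22.7% held a region. Gene windows and loci are unlike units, so this share is only a rough reference. EEF1G, EIF4B and NACA were each split between loci, and some loci ran beyond the window. The EEF1G locus with 4 of its 5 regions had 12 clusters and so was not among the loci counted. The authors' log2 folds of the 22 regions ran from 3.08 to 3.78, and the highest of the whole list was 7.21. An enriched cluster in both replicates lay under 15 of the 22, all in EEF2 and EEF1G, so that requirement leaves 2 genes. The 22 regions together cover 715 bases.

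Along the genes, the 20% of the window nearest the 3′ end contained 18 of the 22 regions (81.8%). It also contained 14 of 16 enriched clusters of replicate 1 and 22 of 31 of replicate 2, against 28.3% and 27.9% of clusters that were not enriched. EEF2 supplied 13 of those 18 regions, 9 of the 14 clusters and 16 of the 22. Without EEF2 the enriched clusters there numbered 5 of 7 (71.4%) and 6 of 15 (40%), against 20.7% and 21.5% of those not enriched. In replicate 2 without EEF2, the mean position along the window, from 0 at the 5′ end to 1, was 0.462 for enriched clusters and 0.463 for the others. By gene there was no common direction. The mean log2 fold of the 3′ side of the window midpoint was above that of the 5′ side in both replicates in 4 genes (EEF1A1, EEF2, EEF1G and NACA) and below it in 4 (EEF1B2, EEF1D, TPT1 and HNRNPA1). EIF4B changed sign between replicates. In EEF1A1 the difference was 1.14 ± 0.14 (SD, n = 2) and in EEF1G 0.53 ± 0.02. The EEF1A1 value rests on 9 and 7 clusters of the 3′ side, none centred past position 0.588. It says nothing on the rest of that side. In NACA it was 0.17 ± 0.23, smaller than the spread between replicates. In EEF1D it was −0.31 ± 0.12 and in HNRNPA1 −0.20 ± 0.13. The EEF2 difference, 4.17 and 3.14, rests on 1 and 2 clusters of the 5′ side. Clusters at or below a log2 fold of −1 decided 2 of the genes that were lower on the 3′ side. In TPT1 the difference was −0.82 and −2.68 with them and 0.14 and −0.67 without them, so its direction in replicate 1 turns. In EEF1B2 the 3′ side consisted of 2 and 3 such clusters alone, and no difference can be given without them.

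Clusters at or below a log2 fold of −1 in both replicates were found in 3 genes. EEF1B2 had 2 such pairs. They were 207026955 to 207027041, with −2.46 and −2.65, and 207026640 to 207026666, with −2.27 and −2.23. In TPT1 the cluster at 45911651 to 45911695 had −2.85 in replicate 1, and its partner had −2.94 in replicate 2, while the flanking clusters were above input. In EEF2 the cluster at 3982514 to 3982538 had −1.66 and −2.06. Such pairs made up 4 of the 210 overlapping pairs in the windows, and 1140 of the 77005 pairs (1.48%) in the whole lists. Their share in the windows was thus near that of the lists. RefSeq lists small nucleolar RNAs inside these same 3 genes and inside none of the other 6: SNORD37 in EEF2, SNORD51 and SNORA41 in EEF1B2, and SNORA31 and SNORA31B in TPT1. Those genes are placed in GRCh38, so whether the low clusters lie on them was not tested. The authors' −log10 p is 0 below input and carries nothing on depletion.

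Where their clusters overlapped, the replicates mostly gave folds within 1 log2 unit of each other. Of 210 pairs in the windows, 192 (91.4%) were within 1 log2 unit, and the SD of a single value was 0.38, against 0.67 over all pairs of the lists. Pairs were formed from each cluster of replicate 1, so the same cluster of replicate 2 can recur in several pairs. Across pairs, which also share libraries and genes, the correlation was 0.89 by Pearson's r and 0.86 by Spearman's rho. Over all pairs of the lists it was 0.74 and 0.67. Within single genes rho ran from −0.09 in EIF4B to 0.92 in EEF1G, with 0.25 in NACA and 0.32 in TPT1. The mean of replicate 2 minus replicate 1 was 0.14 over the 210 pairs, from −0.09 in NACA to 0.62 in EEF1B2. Of the pairs, 12 passed the threshold for strong enrichment in both replicates, 3 passed it only in the first replicate and 11 only in the second, and 184 did not pass it. Within EEF2 the SD was 0.22 and within EEF1B2 it was 0.76, so the calls in EEF1B2 are the least precise. In EIF4B, where folds were close to input, r was −0.04 over 13 pairs.

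**Figure D5:**
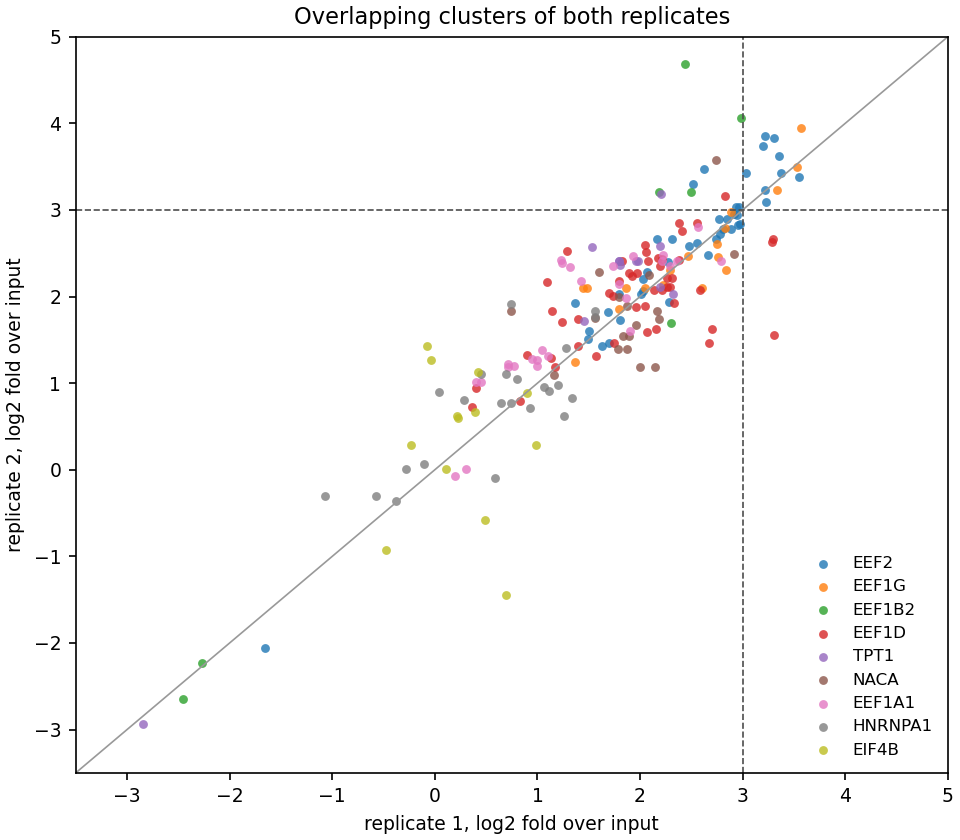
Log2 fold over input in replicate 1 (x axis) and replicate 2 (y axis) for 210 overlapping pairs of clusters, coloured by gene, with the line of equality and dashed lines at the threshold of 3. Most points lie within 1 unit of the line, 12 lie past the threshold in both replicates, and the 4 lowest, from EEF1B2, TPT1 and EEF2, lie below −1 in both.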

How the data were processed

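Cluster lists of 2 LARP4 eCLIP replicates and 1 series-wide list were used. Per the labels' protocols, reads went through the authors' eCLIP pipeline. The submitters' processing notes name UMI-tools 1.0.0, cutadapt 1.14, STAR 2.7.6a, SAMtools 1.6 and hg19. Peak calling, depth scaling and the way replicates were combined were not stated there or in the labels. The deposited −log10 p (limit 400) and the deposited log2 fold over input were recognised by their ranges, as the lists carry no column names. Starts were converted to 1-based positions. Clusters overlapping a window by at least 1 base were kept. Each replicate 1 cluster was paired with the replicate 2 cluster of longest overlap on 1 strand, so pairs can share a replicate 2 cluster. Region values are those of the cluster with the longest overlap in each replicate. No count of reads was available, so depth is unknown. Pairing and locus building were tested on simulated data. Python 3.11.15, pandas 2.3.3, SciPy 1.17.1 and matplotlib 3.10.9 were used.

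The genes, thresholds and lists were chosen with earlier results of these data known. All 9 genes are named. Within each, the region or pair whose lower replicate value is highest is named. The pair with the lowest higher value is named too, where that value is below 0. Other named intervals were chosen after their values were seen. Exons, introns and other translation genes need an hg19 annotation and were not analysed here. Alternatives varied thresholds, weights, windows, genes and replicates.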

Additional observations from a re-analysis of the deposited data

How the results depend on the processing

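Of 78 alternatives run, 55 kept a value within its limits, 22 moved it and 1 reversed a direction. Without clusters at or below −1, a setting chosen after seeing the data, the 3′ minus 5′ difference of TPT1 in replicate 1 turned from −0.82 to 0.14. Enriched clusters numbered 1 and 2 (replicates 1 and 2) when the log2 fold had to reach 4, 170 and 179 when it had to reach 1, and 181 and 195 when it had to reach 1 with any p, a setting chosen after seeing the data. Without EEF2 the enriched shares were 3.50% and 7.65%, so that of replicate 1 went from above to below the list's 5.01%. Also without EEF2, again chosen after seeing the data, 40% of enriched clusters of replicate 2 lay in the last 20% of the window, against 71.0%. Clusters at or below −1 numbered 9 in each replicate, against 19 and 23 below 0. Those below 0 made up 7.72% and 9.35% of the windows' clusters, against 11.6% and 11.2% of all clusters. Median log2 folds became 1.90 and 2.03 when weighted by width, and 1.89 and 1.98 over clusters that overlap the other replicate. They ranged from 1.82 to 1.87 with 1 replicate left out. Where the authors' log2 fold had to reach 4, 0 regions and 0 genes remained. Merging touching regions left 10 regions, and requiring an enriched cluster in both replicates left 2 genes. These settings change the threshold or the unit counted, and other causes were not tested. No paired analysis was possible because the inputs have no values of their own in the lists. Read depth is unknown, so the precision of a single fold cannot be given.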
